A study of Mus musculus with 28 samples.

Results

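The miRNAs mmu-mir-143-3p, mmu-mir-145a-5p, mmu-mir-199b-3p and mmu-mir-10b-5p were followed in small RNA libraries of mouse alveolar macrophages (AM), as 4 of the 607 miRNAs that the 4 deposited tables list in all. The members were chosen by name, as miRNAs known from mesenchymal cells, and all 4 were listed in each table. The AM came from lung lavage of 12 weeks old mice that had breathed filtered air (FA) or ozone (O3) for 3 h and had then recovered for 4 h. Co-ex mice express transgenes of both human SP-A genes, SP-A1 and SP-A2, in mice whose own SP-A is knocked out, and KO mice have no transgene, so both genotypes lack mouse SP-A. The labels name the strain C57BL/6, and the methods give C57BL/6J as the background of the SP-A knockout. The 28 libraries fell into 8 groups of genotype, sex and exposure, of 4 libraries each in co-ex and 3 each in KO. The labels give each library a number but do not state that each came from a separate animal, so the p-values below measure the spread between libraries.

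Both miR-143 and miR-145a are best known from smooth muscle cells and fibroblasts, where they are processed from the same primary transcript and keep the contractile programme of smooth muscle. The miR-199 family and miR-214 are typical of fibroblasts and other connective tissue cells, and miR-10b, which lies in a Hox gene cluster, follows the Hox genes in mesenchymal cells. None of the 4 is among the miRNAs best known from the macrophage lineage, whose abundant miRNAs include miR-223, miR-142a, miR-146a and miR-21a. Which cells the reads of the 4 came from was not tested.

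RefSeq sequences (GRCm38.p6) were at hand for 2 of the 4 members, miR-199b-3p and miR-10b-5p. They are shown with their closest relatives because they set what a read of each can mean. Capitals mark the seed, bases 2 to 8, which pairs with target mRNAs.
mmu-miR-199b-3p: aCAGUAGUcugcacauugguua
mmu-miR-199a-3p: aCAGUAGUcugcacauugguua
mmu-miR-214-3p: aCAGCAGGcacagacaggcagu
mmu-miR-10b-5p: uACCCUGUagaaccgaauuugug
mmu-miR-10a-5p: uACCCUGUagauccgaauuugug
The mature miR-199b-3p differed from miR-199a-3p at 0 positions. Its sequence is therefore made at 3 hairpins, Mir199b (mature arm at chr2:32318524-32318545, plus strand), Mir199a-1 (chr9:21496498-21496519, minus strand) and Mir199a-2 (chr1:162217883-162217904, plus strand), and reads of the 3 cannot be told apart. The tables list these reads under miR-199b-3p alone. The annotation places Mir199b in an intron of Dnm1 and Mir199a-1 in an intron of Dnm2, each on the opposite strand, and Mir199a-2 in an exon of Dnm3os. The miR-10b-5p sequence (chr2:74726074-74726096, plus strand, in an intron of Hoxd3 and Hoxd4) has the same seed as miR-10a-5p (chr11:96317186-96317208, plus strand) and differs from it by the substitution A12U, with positions counted from the 5′ end and the miR-10b base first. The libraries held from 7.33 to 170 times as many reads of miR-10a-5p as of miR-10b-5p where the latter had more than 3 reads, so counts of miR-10b-5p are uncertain where the authors' counting could place reads of the one under the other.

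The libraries held from 41542 to 2082034 reads on miRNAs, with a median of 490152. The deposited values are reads divided by a size factor of the library, with each table scaled on its own, and are called normalized values below. Levels are compared across tables only as RPM, reads per 1000000 miRNA reads. The list of 7 miRNAs of macrophages and other leukocytes made up from 4.39% to 22.3% of the reads, but 55.7% to 97.6% of that was miR-21a-5p, which many cell types express, so the sum is no check of the labelled cell type. The more lineage-restricted miR-223-3p ranged from 1107 to 15332 RPM. The summed share of the 4 members ranged from 0.0259% to 2.56%. Where a miRNA falls in such samples, fewer cells of a type and less RNA per cell cannot be told apart.

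In median RPM, miR-143-3p was highest in KO males after O3 (3370, range 2258 to 4186) and lowest in co-ex males after FA (356, range 94.9 to 3982). The order of miR-145a-5p was led by the FA groups of co-ex and ended with those of KO, from 306 (104 to 1784) in co-ex males after FA and 206 (143 to 462) in co-ex females after FA to 7.87 (0 to 507) in KO males after FA and 2.69 (0 to 40.9) in KO females after FA. The median of miR-199b-3p ran from 966 (265 to 2699) in co-ex females after O3 to 39.0 (11.1 to 184) in KO females after FA. For miR-10b-5p it was 45.7 (0 to 171) in co-ex males after FA at the top and 0 (0 to 1.34) in KO females after FA at the bottom. Neighbouring groups in these orders overlapped for each member except miR-10b-5p, for which the range in KO males after FA, 3.58 to 193, lay above that in KO females after FA. Those KO female libraries held at most 1 read each, and the 2 libraries at 0 allow up to 3 reads, or 2.99 and 3.69 RPM. The 3.58 came from 5 reads, so these 2 groups are not told apart at this depth.

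**Figure D1:**
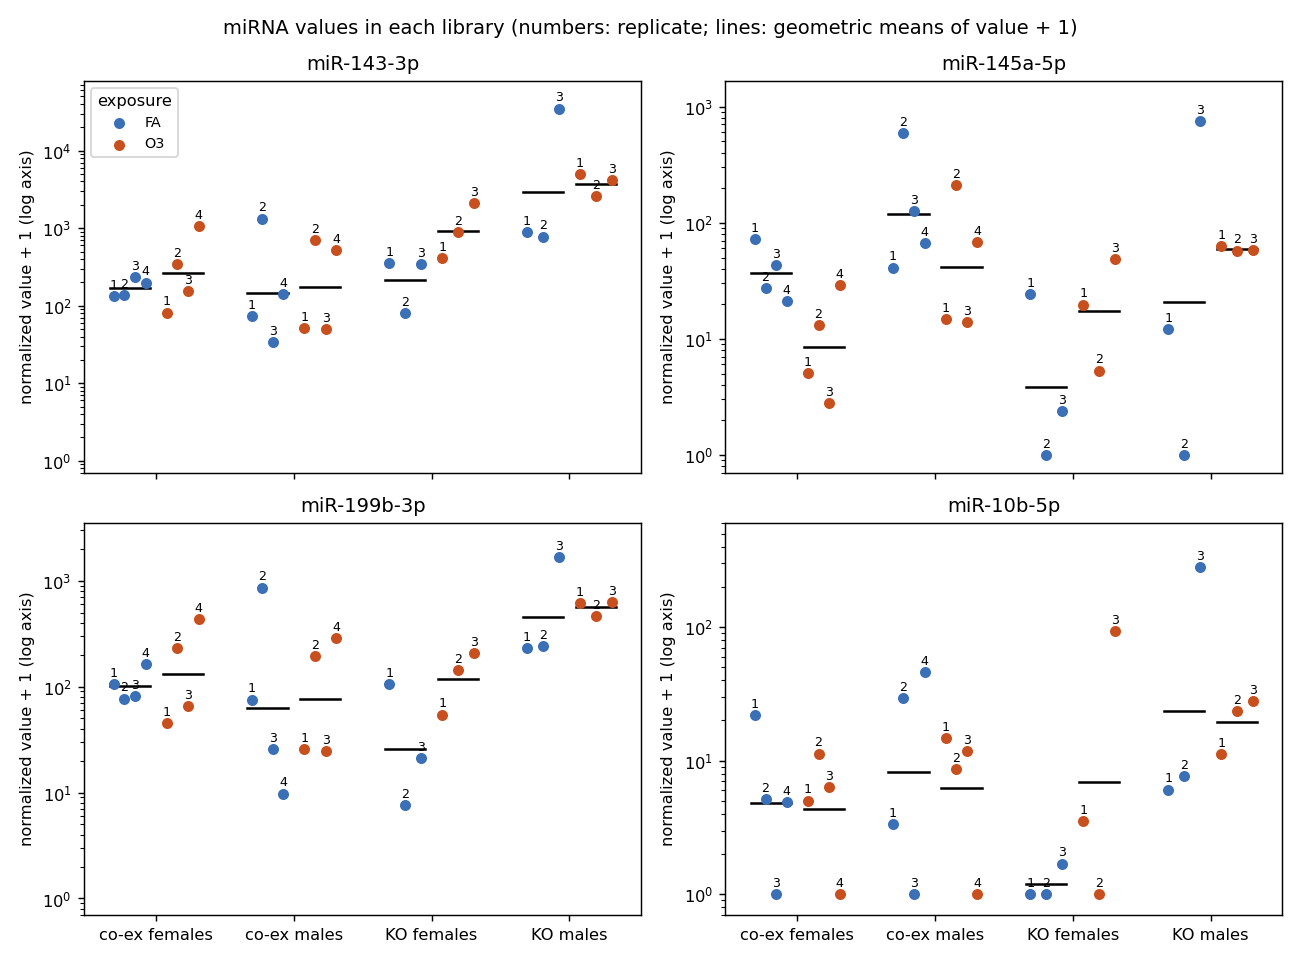
Normalized value plus 1 of each miRNA (log axis) in every library of the 4 tables, after FA (blue) and O3 (orange), with the replicate number beside each point and a line at the geometric mean of the group. The KO male FA library numbered 3 is the highest of its table for all 4 miRNAs, and the FA and O3 points of most tables overlap.

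The comparison of O3 with FA within each table asked how the AM of that genotype and sex responded to the exposure. At an adjusted p under 0.1 by limma, none of the members that passed the filter on low values was called in any of the 4 tables. The members called were 0 of 3 in co-ex females, where 0.369% of the 271 miRNAs tested were called, 0 of 4 in co-ex males (0.0% of 312), 0 of 3 in KO females (13.2% of 319), and in KO males 0 of 4 (0.909% of 440). By unadjusted p under 0.05, 1 member passed in co-ex females, 0 in co-ex males, 1 in KO females and 0 in KO males. The member left out in both female tables was miR-10b-5p.

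In co-ex females, miR-145a-5p had a lower mean after O3, a difference that did not pass the adjusted test. Its normalized values after FA were 71.0, 26.3, 41.9 and 20.2, and after O3 they were 4.02, 12.0, 1.77 and 27.8. Only the O3 library numbered 4 reached into the FA range. The change was -2.10 ± 0.92 (SE) on the log2(value + 1) scale, a limma adjusted p of 0.778 and an unadjusted limma p of 0.0378 that did not survive adjustment. The counts behind it were small, from 24 to 76 reads in the FA libraries and from 1 to 45 in the O3 libraries.

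The miR-143-3p values in co-ex females were 133, 136, 230 and 197 after FA and 80.4, 346, 152 and 1072 after O3. The O3 libraries thus lay on both sides of the FA libraries, and the change was 0.62 ± 0.65 (limma adjusted p of 0.891). The miR-199b-3p values were 104, 76.1, 80.3 and 163 after FA and 44.2, 231, 64.5 and 434 after O3. They were low and high in the same O3 libraries as miR-143-3p, with a change of 0.37 ± 0.67 (limma adjusted p of 0.913). Values of miR-10b-5p were 21.0, 4.15, 0 and 3.88 after FA and 4.02, 10.3, 5.32 and 0 after O3, from at most 16 reads. FA and O3 groups without overlap were found for 4.06% of the miRNAs tested in this table and for 0 of the 3 members.

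In co-ex males the values of each member spread over more than 10-fold within the FA group. The miR-145a-5p values were 40.0, 593, 125 and 65.8 after FA and 13.7, 210, 13.0 and 66.7 after O3, a change of -1.53 ± 1.00 on the log2 scale (limma adjusted p of 0.944) and of -0.76 without the FA library numbered 2. The miR-143-3p values were 72.9, 1324, 32.7 and 139 after FA and 50.3, 696, 49.0 and 516 after O3, a change of 0.25 ± 1.17 with the same adjusted p. The library numbered 2 was the highest of its exposure for both miRNAs, after FA as after O3. The miR-199b-3p values were 74.4, 860, 24.5 and 8.77 after FA and 24.7, 193, 23.8 and 284 after O3 (0.28 ± 1.28). The miR-10b-5p values were 2.35, 28.4, 0 and 45.3 after FA and 13.7, 7.70, 10.8 and 0 after O3 (-0.40 ± 1.36). Neither passed the limma test (adjusted p of 0.944 for both), and the FA and O3 groups overlapped for all 4 members, as for all but 2.88% of the miRNAs tested.

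The FA library numbered 2 of the co-ex males stood apart. It held 1324 of miR-143-3p against 32.7 to 139 in the other FA libraries, 593 of miR-145a-5p against 40.0 to 125, and 860 of miR-199b-3p against 8.77 to 74.4. The folds over the median of the other FA libraries were 18.2, 9.02 and 35.1. As large a fold was reached by 1.02%, 2.04% and 0.680% of the miRNAs tested whose median there was above 0. Those with a median of 0 have no fold and were left out of these shares. It was also the deepest library of its table, with 891030 reads. It was the highest of the 4 FA libraries in the summed level of the other mesenchymal miRNAs. It held 18302 RPM of them, where the next FA library held 9719 and the group median was 6933. Endothelial miR-126a-3p stood at 48.3 RPM there and at 0 to 2.04 in the other FA libraries. The remaining lists went the other way, with the FA library numbered 4 above it. The epithelial list held 37265 RPM in number 4 and 12664 in number 2, and the muscle list 660 and 519. The opposite arms and relatives of the members held 5687 and 5016, the red cell list 4461 and 4095, and the leukocyte list 101988 and 95081. The part of other cell types in these values was not tested.

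In KO females all 3 members tested were higher on average after O3, by 4.31- to 4.57-fold on the log2(value + 1) scale, with wide spread between libraries. The miR-143-3p values were 354, 78.4 and 340 after FA and 408, 896 and 2093 after O3. Each O3 library exceeded each FA library, which was so for 31.3% of the miRNAs tested in one direction or the other. The change was 2.11 ± 0.75, with an unadjusted limma p of 0.0219 and a limma adjusted p of 0.132. DESeq2 on the recovered reads gave 2.14 ± 0.74 and an adjusted p of 0.0283, in a fit that called 19.6% of the 316 miRNAs with an adjusted p, and edgeR gave an adjusted p of 0.145.

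The miR-199b-3p values in KO females were 104, 6.59 and 20.3 after FA and 53.5, 142 and 208 after O3. The first FA library lay inside the O3 range, and the change was 2.19 ± 1.08 (limma adjusted p of 0.252). The miR-145a-5p values were 23.1, 0 and 1.40 after FA and 18.7, 4.31 and 47.9 after O3, from 0 to 41 and 1 to 62 reads, a change of 2.15 ± 1.53 (limma adjusted p of 0.478). For miR-10b-5p, 1 read was found in the 3 FA libraries together, and the values after O3 were 2.55, 0 and 92.6. The last of these, from 120 reads, came from the O3 library numbered 3, which was the highest of the table for each of the 4 members.

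The higher means in KO females rested in part on the FA libraries numbered 2 and 3, which carry higher column codes than the rest of the table. Without both, which leaves 1 FA library, the change was 1.37 ± 0.82 for miR-143-3p, 0.16 ± 0.88 for miR-199b-3p and -0.49 ± 1.53 for miR-145a-5p (limma adjusted p of 0.575, 0.952 and 0.909).

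That O3 library numbered 3 of the KO females also held 85312 RPM of the muscle list, of which 2 of 7 miRNAs are listed in this table, where the other 5 libraries held from 18.5 to 720. Without it the change of miR-143-3p was 1.51 ± 0.76 (limma adjusted p of 0.346). Of the 11 epithelial miRNAs, all tested here, 9 rose and 0 fell after O3 by limma, with a median of 3.62 on the log2 scale over the list and 0.06 over all miRNAs tested. Their summed level was 28268 to 51593 RPM after O3 and 2244 to 5543 after FA. The 2 endothelial miRNAs summed to 48.9 to 674 after O3 and 8.97 to 16.0 after FA, with 0 of 2 called. These 2 lists were thus higher after O3, as the members were on average. The red cell list and the macrophage and other leukocyte list had median changes of -0.84 and -0.46, with 0 of 2 and 0 of 7 called. The part of other cell types in the result was not tested.

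In KO males the outcome turned on 1 library. The miR-143-3p values were 887, 777 and 34854 after FA and 4921, 2600 and 4124 after O3. The FA library numbered 3 was thus 39.3-fold above the next FA library and above each O3 library, while the other two FA libraries were below each O3 library. The change over all 6 libraries was 0.38 ± 1.40 (limma adjusted p of 0.967). Without the FA library numbered 3 it was 2.17 ± 0.29, with a limma adjusted p of 0.00013. That library is the highest of its table for each member. The p-values of the fit without it are therefore no independent support of a rise in any member. Leaving out another library gave negative changes in some fits, as given in the closing section.

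The miR-145a-5p values in KO males were 11.2, 0 and 743 after FA and 62.1, 56.4 and 57.3 after O3. The 3 O3 libraries lay within 1.13-fold of each other in RPM, 46.8 to 52.8, from 45 to 110 reads. The change was 1.51 ± 2.15 (limma adjusted p of 0.957), and without the FA library numbered 3 it was 4.09 ± 0.97 (limma adjusted p of 0.0108), with 1 of the 2 remaining FA libraries at 0 reads, so that this fitted change depends on the pseudocount. The miR-199b-3p values were 231, 241 and 1666 after FA and 615, 459 and 622 after O3. Its change was 0.31 ± 0.80 (limma adjusted p of 0.967) with the library and 1.24 ± 0.29 (limma adjusted p of 0.0107) without it.

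The miR-10b-5p values in KO males were 5.08, 6.69 and 282 after FA and 10.2, 22.6 and 27.0 after O3, from 5 to 25 reads outside the third FA library. The change was -0.28 ± 1.49 (limma adjusted p of 0.980), and 1.51 ± 0.85 (limma adjusted p of 0.297) without that library. With all 6 libraries the FA and O3 groups overlapped for all 4 members, as for all but 12.7% of the miRNAs tested. Without the FA library numbered 3, 3 of the 4 members rose, in a fit that called 20.0% of the 440 miRNAs, 66 higher and 22 lower after O3, and the groups no longer overlapped for the 4 members nor for 43.4% of all miRNAs tested.

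**Figure D2:**
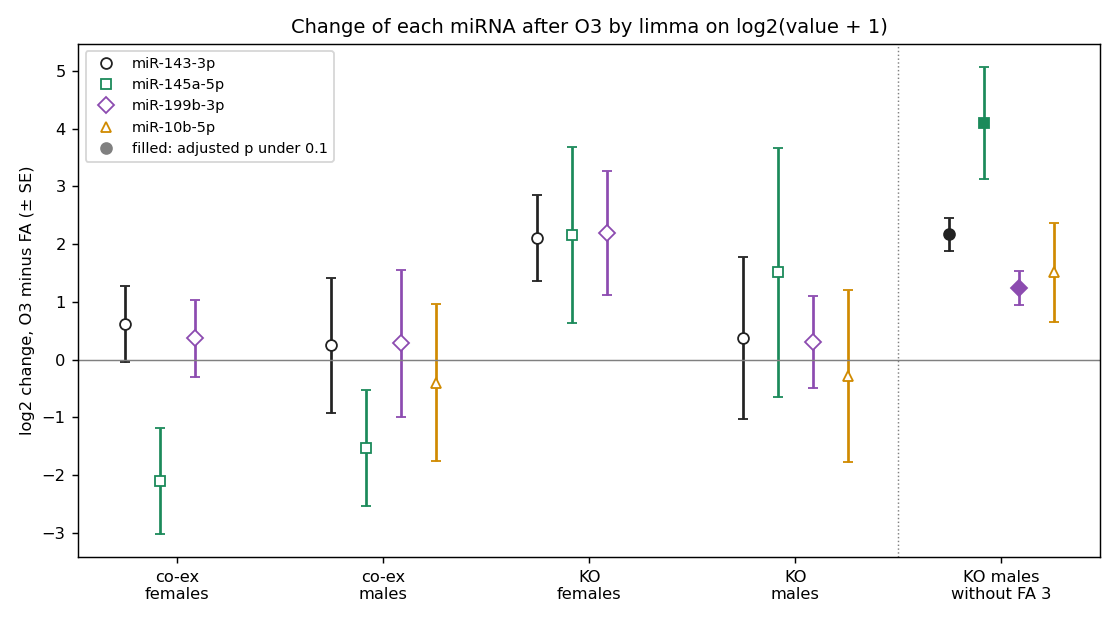
Log2 change from FA to O3 of each miRNA (y axis, ± SE by limma on log2(value + 1)) in the 4 tables and, right of the dotted line, in KO males without the FA library numbered 3. Filled symbols have an adjusted p under 0.1 and appear only right of the line, where miR-143-3p, miR-145a-5p and miR-199b-3p stand at 2.17, 4.09 and 1.24. The library left out there is the highest of its table for each miRNA, so the filled symbols are no independent support.

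The KO male FA library numbered 3 held the highest value of its table for 34.1% of the 440 miRNAs tested, the 4 members among them. The 4 members summed to 25630 RPM there, to 771 and 799 in the other FA libraries and to 2724 to 4770 after O3. Lists of other cell types stood apart in it as well. The endothelial list held 7177 RPM, with 10.7 and 11.2 in the other FA libraries, and the muscle list 3867, with 16.5 and 17.9. The epithelial list held 29197, near the 26277 to 35107 of the O3 libraries and above the 2409 and 3082 of the other FA libraries. The red cell list held 67930, with 16129 and 28961 in the other FA libraries, and lay within its range after O3, 5365 to 111249. The other mesenchymal miRNAs held 8023 RPM, with 977 and 1228 in the other FA libraries. The macrophage and other leukocyte list held 48257, the lowest of the table, with 166620 and 223175 in the other FA libraries, and the gap was mainly that of miR-21a-5p, at 31497 with 157499 and 211919. Within this list miR-223-3p was lower there too, at 1706 with 4796 and 5989. The others were not all lower, since miR-150-5p stood at 5752 with 103 and 115, miR-146a-5p at 3588 with 341 and 373, and miR-155-5p at 1134 with 153 and 155.

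Without that library the epithelial list again moved with the members, 10 of 11 miRNAs rising after O3 with a median of 2.89 on the log2 scale, where the median of all miRNAs tested was -0.08. Endothelial miR-126a-3p rose by 2.99 ± 0.53 (limma adjusted p of 0.00138), and with all 6 libraries its change was -0.13 ± 2.40 (limma adjusted p of 0.993). Of the macrophage and other leukocyte list 2 of 7 fell, miR-142a-5p and miR-21a-5p. With all 6 libraries 1 of the 11 epithelial miRNAs rose, and 0 of these 7 were called. As for the members, the p-values of the fit without that library are no independent support of these changes. The part of these cell types in the members' change was not tested.

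**Figure D3:**
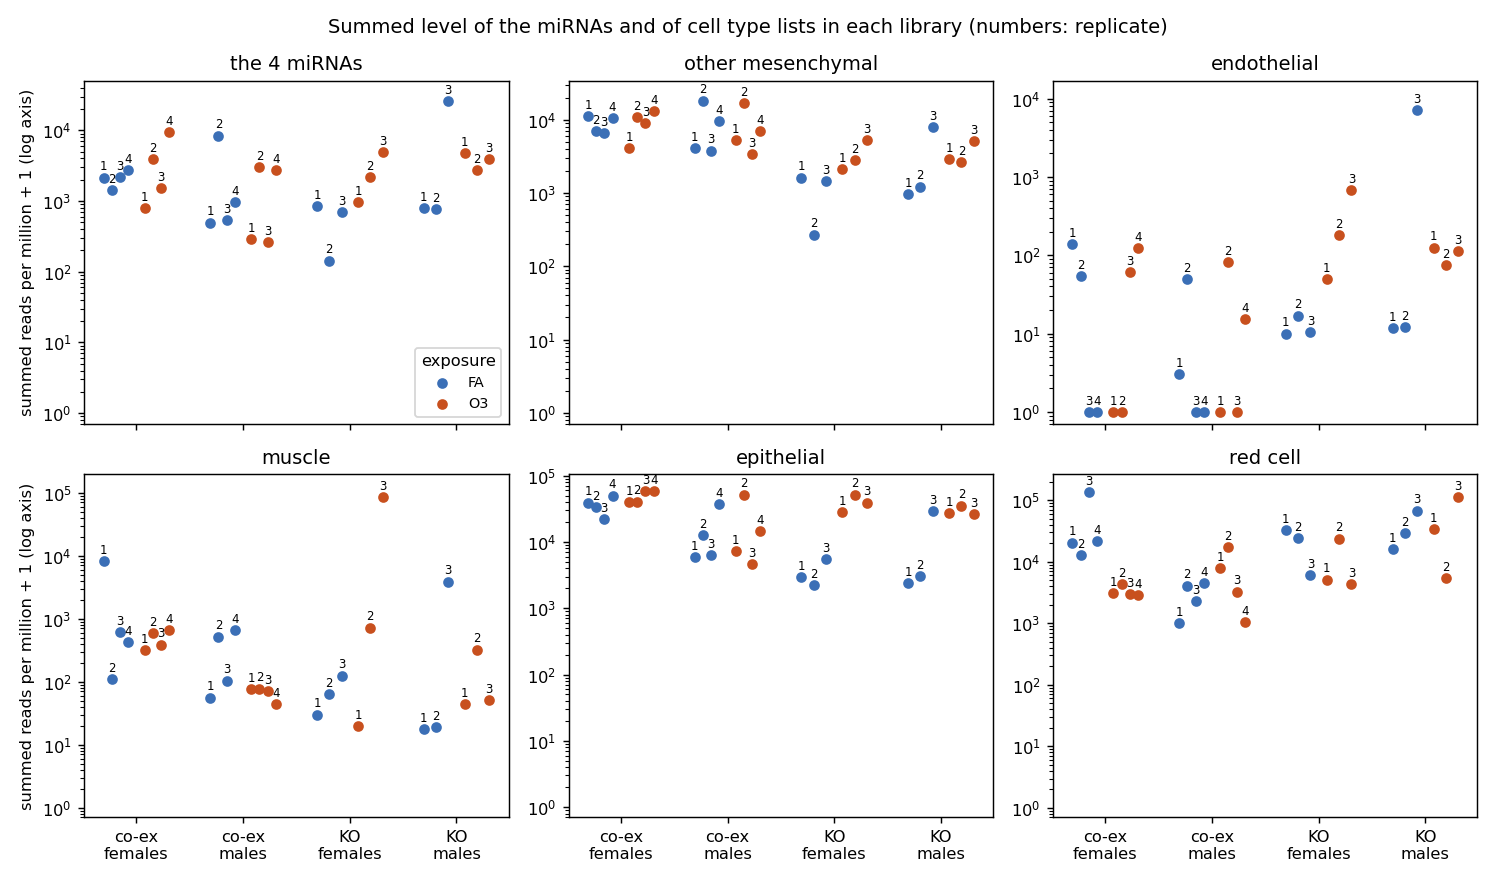
Summed RPM, plus 1 (log axis), of the 4 miRNAs and of 5 lists of miRNAs of other cell types in every library, after FA (blue) and O3 (orange), with the replicate number beside each point. The KO male FA library numbered 3 lies above the other FA libraries of its table in all 6 panels, and the epithelial lists of both KO tables lie higher after O3 than in the remaining FA libraries.

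Partner arms and relatives of the members were read beside them. Of the 10 miRNAs in this list, which holds the opposite arms, miR-199a, miR-214 and miR-10a, 3 were tested in co-ex females, co-ex males and KO females and 6 in KO males, and 0 were called in any table. Their median change was -0.17 in co-ex females, 0.45 in co-ex males, 1.26 in KO females and -0.45 in KO males. In KO males without the FA library numbered 3 it was 0.60, and miR-10a-5p rose by 1.31 ± 0.26 (limma adjusted p of 0.00346). With that library the change of miR-10a-5p was -0.22 ± 1.20, so the fit without it is no independent support of a rise. The miR-214-3p changes were -1.17 ± 1.30, 0.45 ± 1.49, 3.02 ± 1.57 and -0.71 ± 0.88 in the same order of tables. The opposite arm of miR-145a-5p, miR-145a-3p, changed by -0.17 ± 1.19 in co-ex females, -0.38 ± 1.79 in KO females and -0.38 ± 1.54 in KO males. Without the FA library numbered 3 of the KO males its change was 1.40 ± 0.77 (limma adjusted p of 0.279). In KO males the ratio of miR-145a-5p to miR-145a-3p reads ran from 0 to 1.04 after FA and from 0.646 to 3.75 after O3. The KO female FA library numbered 3 held 2 reads against 70.

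Of the 11 other mesenchymal miRNAs, in co-ex 0 of 6 were called in females and 0 of 5 in males. In KO females 1 of 6 rose, miR-99a-5p, by 1.92 ± 0.61 (limma adjusted p of 0.0980), with a list median of 1.76. In KO males 0 of 10 were called, with 0.95 ± 0.89 for miR-99a-5p and 0.60 ± 0.87 for miR-125b-5p. Without the FA library numbered 3, 2 of 10 rose, miR-99a-5p by 2.00 ± 0.33 and miR-125b-5p by 1.60 ± 0.36 (limma adjusted p of 0.000759 and 0.00746). Here too the fit without that library is no independent support of a rise. In co-ex females the red cell list held the 1 miRNA called in that table, miR-486b-5p, which fell by 3.19 on the log2 scale (limma adjusted p of 0.0341). The muscle list had 0 of 2 called in co-ex females, 0 of 2 in co-ex males and 0 of 1 in KO females, and in KO males 0 of 2.

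The differences between the changes were tested on miRNAs kept by the filter in each of the 2 tables compared. Between co-ex and KO females 0 of 3 members were called, where 8.71% of 241 miRNAs were. The largest member difference there was that of miR-145a-5p, which was lower after O3 in co-ex and higher in KO, -4.26 ± 1.69 (co-ex minus KO, limma adjusted p of 0.159, unadjusted 0.0231 by limma). The differences of miR-143-3p and miR-199b-3p were -1.49 ± 1.11 and -1.82 ± 1.28 (limma adjusted p of 0.521 and 0.487). Between co-ex and KO males 0 of 4 were called (0.0% of 305), with -3.05 ± 2.38 for miR-145a-5p and from -0.13 to -0.03 for the rest. Between males and females 0 of 3 were called in co-ex (0.0% of 249) and 0 of 3 in KO (0.0% of 309). These sex differences, males minus females, ran from -0.37 to 0.57 in co-ex and from -1.89 to -0.64 in KO, with limma adjusted p of 0.834 or more. At an unadjusted p under 0.05 by limma 0 members passed in these last 3 comparisons.

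The genes Mir143 (chr18:61649196-61649258) and Mir145a (chr18:61647825-61647894, GRCm38) lie on the minus strand with 1301 bases between them, outside other annotated genes. Since their reads come from the same library, their ratio does not depend on depth or on scaling. This ratio was chosen after the values were seen, as 1 of 4 ratios compared in each of the 4 tables, 16 tests in all.

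Within each sex of co-ex, each O3 library had a higher ratio of miR-143-3p to miR-145a-5p reads than each FA library. Neither test passed after adjustment. In co-ex females there were 1.87, 5.17, 5.50 and 9.77 reads of miR-143-3p for each read of miR-145a-5p after FA. After O3 there were 28.8 and 38.5 in the libraries numbered 2 and 4, and the others held 20 reads against 1 and 257 against 3. The library with 1 read of miR-145a-5p was the shallowest of all, at 41542 reads, so the difference depends in part on offset and depth. With 0.5 added to both counts the groups did not overlap, and the log2 ratio differed by 2.77 (exact two-sided permutation p of 0.0286, the smallest that 4 against 4 allow, and 0.229 adjusted over the 16). In co-ex males the ratios were 1.82, 2.23, 0.261 and 2.11 after FA and 3.67, 3.31, 3.78 and 7.73 after O3. Here too the groups did not overlap, with a difference of 1.80 on the log2 scale and the same exact permutation p of 0.0286 and adjusted value of 0.229.

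Genotype went with column codes and depth, so a difference between co-ex and KO cannot be told apart from these. In KO the ratio was high after either exposure, as it was in co-ex females after O3. In KO females it was 15.3 in the first FA library and 21.9 and 43.7 in the O3 libraries numbered 1 and 3, and the other libraries held from 0 to 2 reads of miR-145a-5p. In KO males it was 79.4 and 46.9 after FA and 79.2, 46.1 and 72.0 after O3, and the remaining FA library held 1045 reads of miR-143-3p and 0 of miR-145a-5p. The FA library numbered 3 of the KO males, at 46.9, was within the range of the O3 libraries of its table. The log2 ratio differed between O3 and FA by -0.77 in KO females (exact permutation p of 0.700) and -1.62 in KO males (exact permutation p of 0.600), in designs whose smallest p is 0.100. In both tables libraries with 0 to 2 reads of miR-145a-5p entered with 0.5 added. Both differences therefore depend on that offset and on depth.

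**Figure D4:**
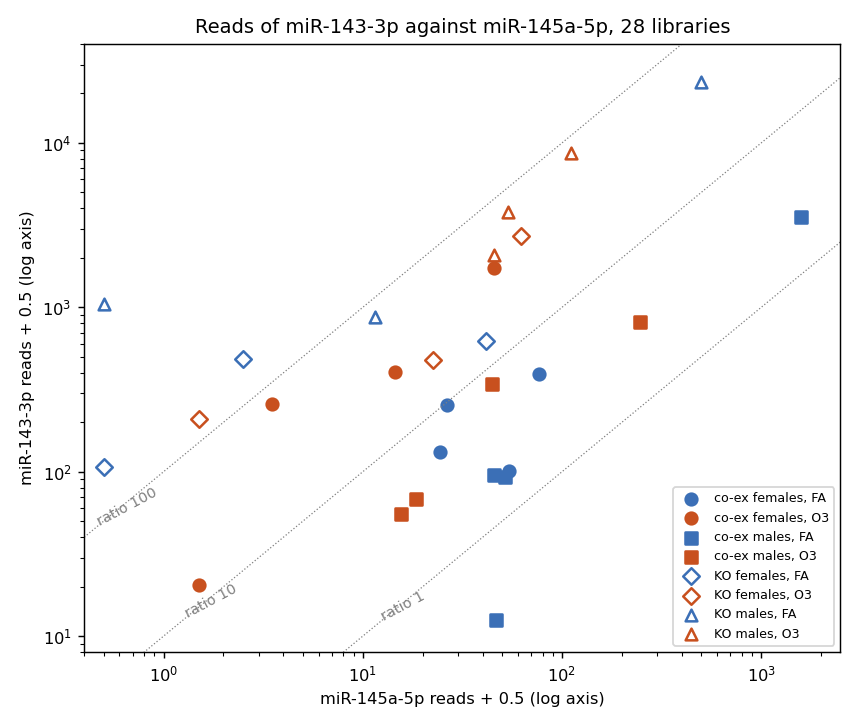
Reads of miR-143-3p (y axis) against reads of miR-145a-5p (x axis), 0.5 added to both and both axes logarithmic, in the 28 libraries. Filled symbols are co-ex and open symbols KO, blue is FA and orange O3, and dotted lines mark ratios of 1, 10 and 100. Co-ex FA libraries and co-ex male O3 libraries lie below the line of 10, and co-ex female O3 libraries and the KO libraries lie above it.

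The other ratios did not separate the exposures. That of miR-143-3p to miR-199b-3p ranged from 1.21 to 2.87 after FA and from 1.50 to 2.47 after O3 in co-ex females, and from 0.979 to 15.8 and 1.82 to 3.60 in co-ex males. In KO females it was 3.40 to 16.8 after FA and 6.30 to 10.1 after O3, and in KO males 3.23 to 20.9 and 5.67 to 8.003. The groups overlapped in each table, as they did for miR-10a-5p to miR-10b-5p and for the 2 arms of miR-145a.

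Covariation of the members was read on the log2(value + 1) scale across the libraries of a table. The pair of miR-143-3p and miR-199b-3p, which lie on different chromosomes, had the highest Pearson r of the member pairs in each table, though not in each table the highest rho. In co-ex females r was 0.917 (exact permutation p of 0.00131) and rho 0.786 (exact permutation p of 0.0279) over 8 libraries, and r was 0.720 without the 2 libraries farthest from the median of miR-143-3p. In co-ex males r was 0.842 (exact permutation p of 0.0127) and rho 0.714 (exact permutation p of 0.0576), and 0.629 without the 2 farthest. On deviations from the exposure means in co-ex males it was 0.841, below the 0.859 of miR-143-3p with miR-145a-5p. Adjusted over the 807 and 1238 relations of a member with a miRNA tested, the values for r were 0.354 and 0.386, and for rho 0.777 and 0.631.

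In KO females r of this pair was 0.907 (exact permutation p of 0.0111) and rho 0.943 (exact permutation p of 0.0167) over 6 libraries, with adjusted values of 0.311 and 0.299 over 951 relations, and r was 0.660 over the 4 libraries left without the 2 farthest. In KO males r was 0.996 (exact permutation p of 0.00556, 0.0965 adjusted over 1750 relations) and rho 0.886 (exact permutation p of 0.0333, adjusted 0.208), below the rho of miR-143-3p with miR-145a-5p (1) and of miR-199b-3p with miR-10b-5p (0.943). The r was 0.994 over the 4 libraries left without the 2 farthest, and 0.993 without the FA library numbered 3 alone. Of the 1750 relations in KO males 8.51% passed at an adjusted p under 0.1, and of the 6 between members 3 did so, the pairs of miR-143-3p with miR-145a-5p, of miR-143-3p with miR-199b-3p and of miR-199b-3p with miR-10b-5p (r of 0.919, 0.996 and 0.926). None of the 3 passed by rho, with adjusted exact permutation p of 0.113, 0.208 and 0.163. Without the FA library numbered 3 the median r of the 6 pairs was 0.808, and with it 0.922.

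The other pairs were weaker in co-ex. The r of miR-143-3p with miR-145a-5p was 0.281 in co-ex females and 0.739 in co-ex males, and of miR-145a-5p with miR-199b-3p 0.372 and 0.669. Within the O3 libraries of co-ex females alone, 4 libraries, these were 0.886 and 0.926, and within the FA libraries -0.304 and -0.351. In co-ex males r of miR-10b-5p with the others ran from -0.13 to 0.21 over all 8 libraries. Within the 4 FA libraries it was 0.749 with miR-143-3p, 0.297 with miR-145a-5p and 0.176 with miR-199b-3p, and within the 4 O3 libraries -0.634, -0.399 and -0.778, so the pooled values near 0 join values of opposite sign. The median r of the member pairs was 0.372 in co-ex females, 0.439 in co-ex males and 0.846 in KO females, where the median over all pairs of miRNAs tested lay between -0.01 and 0.00 in the 4 tables. Libraries of a table share their scaling and differ in depth, so these values describe the libraries.

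Over all 28 libraries, each taken as its deviation from the mean of its group, the miRNAs most like each member were named by their Pearson r, 3 for each, among 229 or 230 candidates. Those most like miR-143-3p were miR-30a-3p (0.857), miR-99a-5p (0.854) and miR-199b-3p (0.842). For miR-145a-5p they were miR-30a-3p (0.870), miR-676-3p (0.802) and miR-143-3p (0.802). For miR-199b-3p they were miR-214-3p (0.892), which comes from the same transcript as Mir199a-2, miR-143-3p (0.842) and miR-100-5p (0.748). For miR-10b-5p they were miR-1a-3p (0.668), a muscle miRNA, miR-151-5p (0.621) and miR-10a-5p (0.607). Without the KO male FA library numbered 3 the values in the same order were 0.784, 0.783 and 0.849 for miR-143-3p, which put miR-199b-3p first of these 3, and 0.770, 0.721 and 0.696 for miR-145a-5p. Those for miR-199b-3p were 0.888, 0.849 and 0.725, and those for miR-10b-5p were 0.565, 0.471 and 0.450. Among the members miR-10b-5p had an r of 0.335 with miR-143-3p, 0.378 with miR-145a-5p and 0.093 with miR-199b-3p, and the other three had r from 0.698 to 0.842 with each other.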

How the data were processed

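The authors took the reads through the CASAVA filter, trimmed quality and adapters, and counted miRNAs with Chimira. Its version, the genome build and the miRNA release are not given in the sources used here. The deposited values are a signal, reads divided by a size factor per library, 1 table per genotype and sex. In all 28 libraries 100% of the values were whole multiples of 1 step (within 0.01 reads), so the reads were recovered. The deposited tables also hold means, fold changes, p-values and ranks of the authors, which were not used.

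The fits used limma 3.58.1, DESeq2 1.42.0 and edgeR 4.0.16 in R 4.3.3, and the rest scipy 1.17.1 and pandas 2.3.3 in Python 3.11.15. O3 was compared with FA by limma (trended prior) on log2(value + 1). A miRNA entered the test if its value reached 5 in n libraries, n being the size of the smaller group. Adjustment was by Benjamini-Hochberg over all miRNAs tested, with a threshold of 0.1. Differences of changes were tested over miRNAs that passed in both tables. Fold changes on this scale understate those of low miRNAs. Leaving out a library kept the set of miRNAs tested. At depths of 41542 to 2082034 reads a count of 0 allows up to 3 reads, or 1.44 to 72.2 RPM, for counting error only. PCR reads without molecular identifiers are not independent molecules. The fits were tested on simulated data. The named miRNAs are the members, list miRNAs that passed a test or relate to a member, and the 3 most alike to each member. The members and lists were chosen with earlier results of these data known. Alternatives were total-count scaling, no filter, a pseudocount of 0.1, edgeR and DESeq2 on recovered reads, the replicate block and leaving libraries out. The study states more animals than there are libraries here, and the rest were not analysed here.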

Additional observations from a re-analysis of the deposited data

Results flagged for a closer look

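In each group of 4 libraries the highest and the lowest value of each member were set against the other 3, which gave 16 groups, all in co-ex. In 3 of them 1 library lay farther from the rest than Dixon's critical value for 4 samples allows. That value gives about 1 in 20 by chance only for normally distributed values. It was applied here to normalized values without a log, so the 3 flags are not set against chance. All 3 were the FA library numbered 2 of the co-ex males. It held 1324 of miR-143-3p where the nearest FA library held 139, a gap of 0.918 of the whole range. It held 593 of miR-145a-5p (nearest 125, gap 0.846) and 860 of miR-199b-3p (nearest 74.4, gap 0.923). The 3 flags share 1 library and are not independent. Groups of 3 libraries, among them those with the KO male FA library numbered 3, were not tested in this way.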

How the results depend on the processing

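The count of miRNAs called in KO males, 4 in the report, was 2 by edgeR, 15 by DESeq2 and 1 with the replicate block, and 0 to 88 with 1 library left out, 88 being without the FA library numbered 3. In KO females it was 42 and 27 to 49 with 1 library left out, and 27 without the FA libraries of the highest column codes (numbers 2 and 3 in females, 3 in males), which in females leaves 1 FA library, assumed to vary like the O3 group. In co-ex females it was 1, and 0 to 1 with 1 library left out. The differences between co-ex and KO females, 21, were 32 with total-count scaling, 35 by DESeq2 and 9 to 29 with 1 library left out. Those between the sexes in co-ex, 0 by limma with 8 at an unadjusted p under 0.05, were 1 by edgeR, 1 by DESeq2 and 0 to 1 with 1 library left out, and in KO 2 by DESeq2. Libraries of one number correlated from -0.28 to 0.23 between the exposures, and 6 of 14 correlated best with their own number. The numbers were therefore not taken as pairs, though so weak a check cannot exclude pairing. The replicate block changed no call of a member.

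By edgeR and DESeq2, which compare arithmetic means, changes turned negative in co-ex males for miR-143-3p (-0.41 and -0.26) and miR-199b-3p (-0.9996 and -0.89) and in KO males for miR-143-3p (-1.47 and -1.60), miR-145a-5p (-1.92 and -2.05) and miR-199b-3p (-0.18 and -0.29). The co-ex minus KO difference in males turned positive for miR-143-3p (1.17 and 1.37), miR-145a-5p (0.45 and 0.61) and miR-10b-5p (1.07 and 1.11), and the sex difference of miR-145a-5p in co-ex was -0.064 by edgeR. DESeq2 gave no p for miR-143-3p, miR-145a-5p and miR-10b-5p in KO males. Without these FA libraries the change of miR-145a-5p in KO females was -0.49, and the differences were 0.21 for miR-199b-3p (co-ex minus KO, females) and 0.81, 4.58 and 1.09 for miR-143-3p, miR-145a-5p and miR-199b-3p (sexes, KO).

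With 1 library left out the changes ranged from -0.063 to 1.18 (miR-143-3p) and -0.21 to 0.88 (miR-199b-3p) in co-ex females, from -0.46 to 1.31 (miR-143-3p), -2.32 to -0.76 (miR-145a-5p, the latter without the FA library numbered 2), -0.62 to 1.53 (miR-199b-3p) and -1.41 to 0.48 (miR-10b-5p) in co-ex males, and from -0.57 to 2.17 (miR-143-3p), -0.68 to 4.09 (miR-145a-5p), -0.18 to 1.24 (miR-199b-3p) and -1.26 to 1.51 (miR-10b-5p) in KO males. In KO females they ranged from 1.40 to 2.69 (miR-143-3p), 1.18 to 3.48 (miR-145a-5p) and 1.31 to 3.21 (miR-199b-3p), lowest for each without the FA library numbered 2. There miR-143-3p passed without the O3 library numbered 1 (limma adjusted p of 0.0891) and miR-199b-3p without the FA library numbered 1 (0.0976), and the difference of miR-145a-5p between co-ex and KO females passed without the KO FA library numbered 1 (0.0589 by limma). Differences between co-ex and KO males ranged from -1.92 to 0.93 (miR-143-3p), -0.96 to 1.23 (miR-199b-3p) and -1.91 to 0.86 (miR-10b-5p). Sex differences ranged in co-ex from -1.07 to 0.69 (miR-143-3p), -0.21 to 1.34 (miR-145a-5p) and -0.99 to 1.17 (miR-199b-3p), and in KO from -2.67 to 0.068 (miR-143-3p) and -2.83 to 1.94 (miR-145a-5p).

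The median r of the member pairs in co-ex females was 0.731 on deviations from the exposure means, and with 1 library left out it ranged from 0.685 to 0.896 in KO females and from 0.808 to 0.971 in KO males. In co-ex males r of miR-10b-5p with miR-145a-5p was -0.029 with a pseudocount of 0.1, -0.0052 on deviations from the exposure means and -0.084 by Spearman, and with 1 library left out r of miR-10b-5p ranged from -0.051 to 0.50 with miR-143-3p, -0.33 to 0.17 with miR-145a-5p and -0.57 to 0.20 with miR-199b-3p. The log2 difference of the ratio of miR-143-3p to miR-145a-5p ranged from -2.65 to 0.091 in KO males and kept its sign in the other tables, also with 1 read added to both counts. The causes were not tested. Members of few reads, miR-10b-5p and miR-145a-5p, are the least certain at this depth.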
